A study of Homo sapiens with 24 samples.

Results

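Gene deserts are long stretches of the genome without genes. Enhancers in deserts can lie far from the promoters they act on, and deserts beside developmental transcription factor genes are known for such distant elements. The sites described here are the gene-desert sites of S100A8-Flag and S100A9-Flag. S100A8 and S100A9 are calcium-binding proteins of the S100 family that form a heterodimer and are best known as inflammatory proteins of myeloid cells. Neither has a conventional DNA-binding domain, so that Flag ChIP-seq reports where they are cross-linked to chromatin, directly or through other proteins.

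The cells were MCF-10A–ER-Src, a nontransformed human mammary epithelial line with an inducible fusion of the Src kinase and the estrogen receptor ligand-binding domain. They stably expressed S100A8-Flag or S100A9-Flag, and all 4 groups carry the fusion and a tagged protein. Cells received 1 μM 4-hydroxytamoxifen (TAM) for 24 hours, which activates Src and starts transformation, or ethanol (EtOH), the vehicle. Peak lists were available for 2 EtOH and 3 TAM libraries of S100A8-Flag and for 3 EtOH and 3 TAM libraries of S100A9-Flag, which the labels call biological replicates. The tagged protein is made from an introduced gene, and a change in binding and a change in the amount of tagged protein in nuclei cannot be told apart in these lists.

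Members were selected on their measured −log10 q value and on their position. Peaks with −log10 q of at least 7 that overlapped in at least 2 replicates of a condition were merged over the 4 conditions into 30322 union sites. A gene-desert site is a union site whose summit, taken from the peak with the highest −log10 q, lay in no protein-coding or lncRNA gene, more than 1500 bp from every lncRNA transcription start site (TSS), and more than 50 kb from every protein-coding TSS. The start of every annotated transcript counted as a TSS, so that the nearest TSS need not be the 5′ end of its gene. There were 2666 gene-desert sites, 8.79% of all union sites. The others comprised 12385 genic sites, 10400 promoter sites, 4439 intergenic sites with a protein-coding TSS within 50 kb (near-gene sites), and 432 sites at lncRNA promoters. The highest −log10 q of a gene-desert site ranged from 7.086 to 110. The sites just inside the distance limit lay 50014, 50033, and 50050 bp from the nearest protein-coding TSS, those of GREB1L, CPO, and PPP1R36. The intergenic sites just outside it lay 49981, 49978, and 49960 bp from the TSSs of TENT5D, DGKG, and SLC16A14.

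The sequences of 8 gene-desert sites are shown. All but the last carry one or more of the consensus sequences on which the results below turn, and the last has none of them and is shown because its site had a peak in every library. Each is the plus strand of hg19 (GRCh37) from 50 bp before to 50 bp after the summit. Capitals mark matches to a consensus on either strand. The consensus sequences were TGAGTCA or TGACTCA for AP-1, the dimer of Fos and Jun proteins, and TTACNNAA or TTGCNNAA for the C/EBP family. GGAATG was used for TEAD, the DNA-binding partner of YAP and TAZ, TGTGGTT for RUNX factors, TTCCNGGAA for STAT3, CGGAAG for ETS factors, CCCCGCCC for KLF and SP1 factors, and TGACGTCA for CREB. Those for CTCF, the insulator protein, the p53 family, and NF-kB were longer degenerate sequences. The first pair of sequences holds AP-1 matches. The first lies upstream of SOX9 at chr17:69972242-69972342, and the second lies between FAM43A and XXYLT1 at chr3:194707463-194707563 and adds a C/EBP match.
SOX9 side, AP-1: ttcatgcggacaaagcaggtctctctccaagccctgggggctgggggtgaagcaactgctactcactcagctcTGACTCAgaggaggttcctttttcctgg
XXYLT1 side, AP-1 and C/EBP: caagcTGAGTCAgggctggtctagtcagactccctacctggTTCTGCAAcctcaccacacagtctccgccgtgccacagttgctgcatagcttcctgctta

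The next sequence lies 1763 kb from the nearest protein-coding TSS, that of TENM3, at chr4:181302037-181302137, and has a pair of AP-1 matches. The CTCF match lies between OXGR1 and MBNL2 at chr13:97762275-97762375.
TENM3 side, AP-1: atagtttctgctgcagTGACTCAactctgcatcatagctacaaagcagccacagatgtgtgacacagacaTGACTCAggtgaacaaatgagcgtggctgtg
MBNL2 side, CTCF: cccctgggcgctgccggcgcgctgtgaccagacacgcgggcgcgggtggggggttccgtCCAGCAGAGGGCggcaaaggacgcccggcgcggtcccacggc

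The last 4 sequences hold a single kind of match or none. The TEAD match lies beside SMARCA2 at chr9:2241987-2242087, the RUNX match beside MREG at chr2:216765083-216765183, and the STAT3 match beside GATA2 at chr3:128268232-128268332. The sequence without a match lies beside HHIPL2 at chr1:222638821-222638921.
SMARCA2 side, TEAD: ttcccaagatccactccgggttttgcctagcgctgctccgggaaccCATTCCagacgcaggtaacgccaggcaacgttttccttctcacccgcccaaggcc
MREG side, RUNX: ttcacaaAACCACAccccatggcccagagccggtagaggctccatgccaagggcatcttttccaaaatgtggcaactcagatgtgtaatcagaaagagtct
GATA2 side, STAT3: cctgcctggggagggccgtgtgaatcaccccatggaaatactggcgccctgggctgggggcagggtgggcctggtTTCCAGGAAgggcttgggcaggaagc
HHIPL2 side, no match: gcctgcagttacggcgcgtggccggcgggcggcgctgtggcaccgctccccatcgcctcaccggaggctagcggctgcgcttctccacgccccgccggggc

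The 11 libraries differed in the number of peaks that passed −log10 q of at least 7, from 1853 to 4609 in EtOH and from 21518 to 40735 in TAM. Since no read numbers come with the lists, depth is unknown, and shallow sequencing and weak binding cannot be told apart. No list from cells without a tagged protein was analysed here. Peaks in deserts were therefore compared as shares within a library.

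Gene deserts took a larger share of the peaks of TAM libraries than of EtOH libraries. In S100A8-Flag EtOH libraries, 5.29% and 4.97% of peaks lay in deserts, and in S100A8-Flag TAM libraries 9.02%, 9.21%, and 9.17%. In S100A9-Flag EtOH libraries the shares were 4.45%, 3.13%, and 5.07%, and in S100A9-Flag TAM libraries 9.10%, 8.01%, and 9.92%. Every TAM library was above every EtOH library, and the groups did not overlap for either protein. The mean of the 5 EtOH libraries was 4.58% ± 0.869 and that of the 6 TAM libraries 9.07% ± 0.615 (SD). The difference, averaged over the proteins, was 4.4 percentage points (two-sided exact permutation test of treatment within each protein, p = 0.01, the smallest it can give). By protein the difference was 4.0 points for S100A8-Flag and 4.79 points for S100A9-Flag, where the exact permutation tests gave p = 0.2 and p = 0.1, the smallest these designs allow. The difference between the proteins was 0.79 points (exact permutation test, p = 0.88). With the replicate number as a block, the pooled difference was 4.47 points and the exact permutation p = 0.0625, the smallest that 5 pairs can give.

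The near-gene share of peaks, examined after the desert share was seen, was larger in TAM as well, from 9.82 to 12% in EtOH libraries and from 13.7 to 14.6% in TAM libraries, without overlap. The difference was 3.07 points (exact permutation test, p = 0.01, the smallest it can give), so that a larger share in TAM was not seen for deserts alone. Among desert and near-gene peaks together, deserts held from 24.2 to 31.7% in EtOH and from 36 to 40.4% in TAM, a difference of 9.54 points (exact permutation test, p = 0.01).

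The larger TAM share was also seen among equal numbers of peaks. When the 1853 peaks with the highest −log10 q were taken from each library, the desert share was 5.13% and 4.26% in S100A8-Flag EtOH libraries and 6.69%, 7.61%, and 8.20% in S100A8-Flag TAM libraries. For S100A9-Flag it was 4.26%, 3.13%, and 3.13% in EtOH and 6.85%, 5.50%, and 5.72% in TAM. The groups again did not overlap, and the difference of 2.66 points was smaller than the one over all peaks (exact permutation test, p = 0.01, the smallest it can give). With the replicate block it was 2.49 points (exact permutation test, p = 0.0625). The G+C content of desert peaks moved with treatment as well, from 55.1 to 58.4% in EtOH libraries and from 50.1 to 51.5% in TAM libraries, and its part in the result was not tested.

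**Figure D1:**
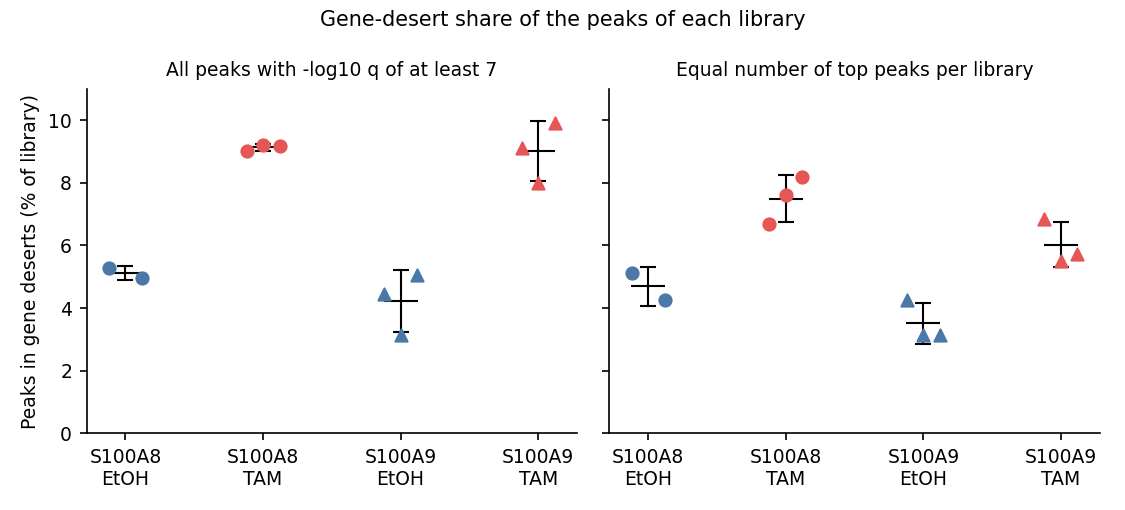
Share of each library's peaks that lay in gene deserts, in percent, for all peaks with −log10 q of at least 7 (left) and for the 1853 top peaks of each library (right). Circles are S100A8-Flag and triangles S100A9-Flag libraries, and bars give the mean and SD of a group; all TAM libraries lie above all EtOH libraries in both panels.

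Calls at the sites themselves chose the members and are given as a description. Of the 2666 gene-desert sites, 1482 (55.6%) were confident in S100A8-Flag TAM, beside 60.1% of all union sites, and 2115 (79.3%) in S100A9-Flag TAM, beside 82.3%. Near-gene sites stood at 55.3% and 82.3%, and promoter sites at 67.9% and 86.4%. Confident calls of gene-desert sites in EtOH were few, 40 sites (1.5%) for S100A8-Flag and 38 (1.43%) for S100A9-Flag. Union sites had 4.01% and 4.54%, and near-gene sites 2.57% and 2.66%. No EtOH library had a peak at 2229 gene-desert sites (83.6%), beside 68.9% of union, 75% of near-gene, and 52% of promoter sites. Of these 2229 sites, 762 (34.2%) did overlap a weaker peak of an EtOH list, one with −log10 q under 7. Among near-gene sites without an EtOH call, 43.8% did. Both proteins were confident in TAM at 939 gene-desert sites (35.2%), beside 42.8% of union, 37.8% of near-gene, and 54.7% of promoter sites. At these 939 sites, the summits of S100A8-Flag and S100A9-Flag lay a median of 23 bp apart, with quartiles of 11 and 44 bp. Near-gene sites were alike, with a median of 25.5 bp and quartiles of 12 and 48 bp. The summits of EtOH and TAM peaks lay a median of 29 bp apart at the 436 gene-desert sites that had both, and 31 bp apart at near-gene sites.

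Few gene-desert sites had a peak in most libraries. Most sites were called in 2 to 4 libraries, with 596 sites (22.4%) in 2, 802 (30.1%) in 3, and 545 (20.4%) in 4 of the 11, beside 16.6%, 25.2%, and 19.5% of union sites. All 6 TAM libraries had a peak at 264 sites (9.9%), beside 14.3% of union, 10.3% of near-gene, 10.2% of genic, and 21.8% of promoter sites. All 11 libraries had one at 2 sites (0.075%), beside 0.346% of union sites. Single EtOH libraries called from 1.58 to 6.23% of the gene-desert sites, beside 5.16 to 12.4% of union sites. Single TAM libraries called from 47.6 to 82.1%, beside 51.6 to 84% of union sites.

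To see whether a library could find desert sites that it had not helped to choose, sites were rebuilt from the other 10 libraries each time. The held-out library called 30.0% of gene-desert sites and 32.6% of near-gene sites on average. The shares of gene-desert sites were 6.09% and 5.86% in the S100A8-Flag EtOH libraries and 45.6%, 47.9%, and 41.3% in the S100A8-Flag TAM libraries. They were 3.72%, 1.54%, and 4.88% in the S100A9-Flag EtOH libraries and 51.5%, 46.8%, and 74.4% in the S100A9-Flag TAM libraries. Gene-desert sites were found less often than near-gene sites by 10 of 11 libraries, with a mean difference of -2.64 percentage points (two-sided exact sign-flip permutation test over libraries, p = 0.00195). This difference was -0.762 points (exact permutation test, p = 0.379) with −log10 q of at least 10 and 0.732 points (exact permutation test, p = 0.74) with equal numbers of top peaks. Within libraries, the median fold enrichment of desert peaks stood at a mean percentile of 46.7 and that of near-gene peaks at 47.7, a difference of -1.07 ± 3.02 (SD, n = 11) that did not pass the test (exact sign-flip permutation test, p = 0.275).

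The 2 gene-desert sites called in all libraries had no AP-1 or CTCF match. The first, at chr1:222638604-222639218 between DUSP10, a MAP kinase phosphatase gene, and HHIPL2, had G+C of 72.6%. Its fold enrichment over input was 9.63 and 11.9 in S100A8-Flag EtOH, 10.7, 14.8, and 8.53 in S100A8-Flag TAM, 6.83, 9.77, and 17.9 in S100A9-Flag EtOH, and 8.42, 15.7, and 8.38 in S100A9-Flag TAM. The EtOH and TAM values overlapped. Fold enrichment is relative to each library's own input and was not tested between libraries. The second, at chr1:149223178-149224809 between NBPF16 and the histone H3 gene H3-7, was 1632 bp wide, had C/EBP and KLF/SP1 matches, and ranged from 5.2 to 15.5. It lies among the near-identical NBPF gene copies, where uniquely mapped reads can be incomplete.

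Sites with peaks in 10 libraries lay beside SMARCA2, an ATPase subunit gene of the SWI/SNF chromatin remodelers, between ZNF184 and the histone H2B gene H2BC13, and between OXGR1 and MBNL2, an RNA splicing regulator gene. The site at chr9:2241894-2242185, 60.5 kb from the nearest transcript start of SMARCA2, lacked a peak only in S100A9-Flag EtOH replicate 3 and had fold enrichments from 4.43 to 14.5. The site between OXGR1 and MBNL2 at chr13:97762146-97762499, with the CTCF match shown above, lacked a peak only in S100A9-Flag EtOH replicate 2. Its values were 5.98 and 4.66 in S100A8-Flag EtOH and 12.9, 15.9, and 8.38 in S100A8-Flag TAM, and these groups did not overlap. The values in S100A9-Flag were 7.79 and 8.48 in EtOH and 11.2, 13.1, and 13.5 in TAM, again without overlap.

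The first pair of AP-1 sequences shown above belongs to sites with peaks in 9 libraries. The site at chr17:69972198-69972522 lies 145 kb from the TSS of SOX9, a transcription factor gene of cartilage and epithelial progenitors that is known for distant enhancers. It had peaks in all 6 TAM libraries and in the 3 S100A9-Flag EtOH libraries, and none in S100A8-Flag EtOH. Its fold enrichment was 8.7, 12.5, and 12.1 in S100A8-Flag TAM, 9.22, 8.19, and 9.93 in S100A9-Flag EtOH, and 8.15, 15.7, and 6.46 in S100A9-Flag TAM. The site at chr3:194707257-194707729, 101 kb from the nearest transcript start of XXYLT1, a xylosyltransferase gene, had values of 7.8 and 8.84 in S100A8-Flag EtOH and 11.9, 13.8, and 8.84 in S100A8-Flag TAM. In S100A9-Flag it had 7.58 in EtOH replicate 3, no peak in the other EtOH libraries, and 13.9, 11.6, and 13.9 in TAM. The eighth site, at chr14:77384861-77385628 between LRRC74A and IRF2BPL, had peaks in 3 EtOH and all 6 TAM libraries.

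**Figure D2:**
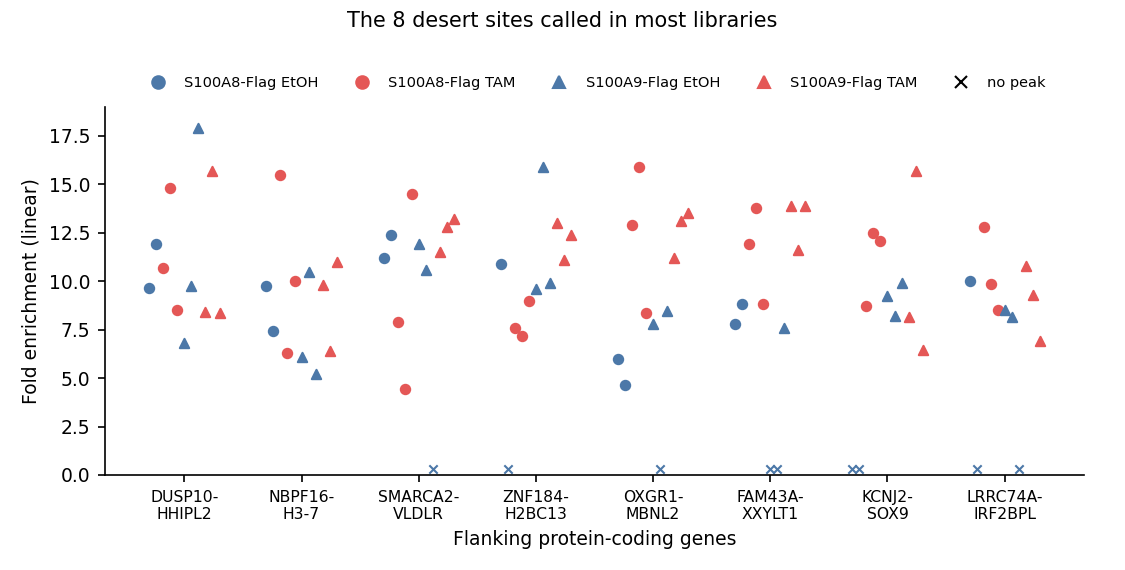
Fold enrichment over input (linear scale, vertical axis) of the 8 gene-desert sites called in most libraries, named by their flanking protein-coding genes, with one point for each of the 11 libraries. Crosses at the bottom mark libraries without a peak with −log10 q of at least 7; all crosses are EtOH libraries, and TAM and EtOH values overlap at most sites.

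The leading sites with a single kind of match differed in their EtOH calls. The TEAD site is the SMARCA2 site above. The RUNX site at chr2:216764865-216765318, between FN1, the fibronectin gene, and MREG, had peaks in 3 EtOH and 5 TAM libraries, with fold enrichments from 7.2 to 12.6. The STAT3 site at chr3:128268131-128268478, 56.2 kb from the TSS of GATA2, a hematopoietic transcription factor gene, had no EtOH peak. Its values were 12.1, 8.76, and 9.09 in S100A8-Flag TAM and 12.1 and 10 in S100A9-Flag TAM replicates 1 and 3. STAT3 was the only kind of match at 5 gene-desert sites, within 50 bp of the summit, and AP-1 at 408. The leading sites with a CTCF or C/EBP match alone lay on chromosome 8 beside SBSPON and UNC5D and had peaks in all 6 TAM libraries and in 1 and 2 EtOH libraries.

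Sites confident in EtOH and in no TAM condition numbered 8 (0.3%), beside 0.383% of union sites. Of the 3 with the highest EtOH percentile, those beside SYK, a tyrosine kinase gene, and beside FOXI3, a forkhead transcription factor gene, still had peaks in 2 single TAM libraries. The site at chr2:87623805-87624026 had peaks only in S100A9-Flag EtOH replicates 1 and 3, with fold enrichments of 10.6 and 7.37. It lies between PLGLB1 and PLGLB2, near-identical genes, where reads can be assigned to either copy.

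Gene-desert sites were not spread evenly. The position rule keeps 704.6 Mb, or 24.8%, of the 2836 Mb of sequenced bases, and these held 8.79% of union sites. The density was 3.78 sites per Mb of desert and 13 union sites per Mb elsewhere. Among chromosomes, the density in deserts was highest on chromosome 20, with 8.62 sites per Mb, and chromosome 15, with 8.31. It was lowest on chromosome 19, with 3 sites in 3.38 Mb, and chromosome X, with 1.15 sites per Mb. The nearest protein-coding TSS lay a median of 114 kb away, with quartiles of 73.3 and 234 kb. It was over 200 kb away for 797 sites and over 500 kb away for 281. Sites were a median of 267 bp wide, against 342 bp for all union sites. An annotated gene of another type, mostly a pseudogene (43 sites), covered the summit of 49 sites, and 34 sites lay within 50 kb of an assembly gap.

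The 5 sites farthest from protein-coding genes had peaks in TAM libraries alone. Most gene-desert sites had no EtOH peak (83.6%), and of sites over 500 kb away only 10.7% had one. Of the 5 farthest sites, 4 were on chromosome 4. The site at chr4:33710997-33711221 lay 2337 kb from the TSS of ARAP2 and had peaks in 4 TAM libraries with fold enrichments of 8.49, 8.13, 7.36, and 10.7. A second site in the same desert, between PCDH7, a protocadherin gene, and ARAP2, lay 2330 kb away and had peaks in 3 TAM libraries. The sites in the desert between AGA and TENM3 lay 2277 and 1763 kb from TENM3, the first with a CTCF and the second with an AP-1 match. The fifth, on chromosome 11 between IFTAP and LRRC4C, lay 1694 kb away and had peaks in 4 TAM libraries.

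Of 3072 intervals between neighboring protein-coding genes that hold desert sequence, 1173 (38.2%) had a gene-desert site, with a median of 2. The 17 intervals with at least 10 sites held 216 sites, 8.1% of the total. The most, 18 each, lay between PLXNA2, a semaphorin receptor gene, and CAMK1G and between VRK1 and BCL11B, a zinc finger transcription factor gene. Among the former, 6 had an AP-1 match and 5 had a peak in an EtOH library. Among the latter, 10 had an AP-1 match and 3 an EtOH peak. Of all gene-desert sites, 44.1% had an AP-1 match and 16.4% an EtOH peak. The leading site of the BCL11B desert, chr14:99419630-99420263, had peaks in 2 EtOH and all 6 TAM libraries. The interval between TMEM132B and TMEM132C held 15, and that between TLE3, a transcriptional corepressor gene, and UACA held 14 in 0.424 Mb of desert.

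The sixth interval by number, between CD93 and NXT1 on chromosome 20, held 13 sites in 0.151 Mb of desert, or 85.9 per Mb. It includes the largest group of neighboring sites, 9 within 25.5 kb, and its leading site at chr20:23138215-23138747 had peaks in 2 EtOH and all 6 TAM libraries. The interval between ZNF184 and H2BC13 on chromosome 6 also held 13 sites. None of its sites had an AP-1 or CTCF match, and 8 of the 13 had a peak in an EtOH library, beside 16.4% of all gene-desert sites. This part of chromosome 6 beside the histone genes is known for clustered tRNA genes, which have no entry among the genes used here. The B box, an internal promoter element of tRNA genes, was searched as a consensus of 11 letters on either strand within all sites after this interval was seen. It was present at 5 of these 13 sites. In all, 13 gene-desert sites (0.488%) held a B box, 8 of them on chromosome 6. The B box was present in 0.66% of union sites, 0.924% of near-gene sites, and 0.15% of equally long windows 2000 bp away. Of the 13 gene-desert sites with a B box, 9 had a peak in an EtOH library (69.2%), beside 16.1% of those without. These 13 include the 5 from the interval that prompted the search, and EtOH calls helped to choose the sites. The contrast is therefore a description and was not tested.

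Sites also lay near each other. With a spacing of at most 12.5 kb, 801 sites (30.0%) fell into groups of at least 2, and 12 groups had at least 5 sites. A group of 8 sites spanned 27.7 kb between CEBPB, the gene of C/EBPβ, and PTPN1 on chromosome 20. That interval held 12 sites, of which 4 had an AP-1 match and 2 were called in all 6 TAM libraries, beside 44.1% and 9.9% of all gene-desert sites. Its leading site, chr20:49039608-49040005, had peaks in 2 EtOH and 6 TAM libraries.

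A list of 50 transcription factor genes known to lie beside gene deserts was examined by the number of sites in the intervals next to each. All 50 had desert sequence there, and 39 (78%) had at least 1 gene-desert site, with a median of 2.5. Of the 5859 protein-coding genes next to desert sequence, 43.5% had a site, and the median was 0. Per Mb of adjoining desert, the listed genes had 5.15 sites and all these genes 3.86. BCL11B had 18 sites, KLF4, an epithelial Krüppel-like factor gene, 12, and SOX11 10. NR2F2, TBX3, and IRX2 had 9 each, and IRX1 and EBF1 had 8. SOX9 and KLF12 had 7 each. No site lay beside RUNX1, ETS2, OTX2, TSHZ1, SALL1, SOX4, SIM1, POU3F2, HAND2, or LMO4, of which RUNX1 adjoined only 0.00997 Mb of desert. The list was chosen for genes with deserts, and no test was made of it.

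Consensus sequences were matched within 100 bp of each summit. An AP-1 match was present at 1176 gene-desert sites (44.1%), beside 26.0% of all union sites, 30.2% of near-gene sites, 8.61% of promoter sites, and 3.38% of windows 1000 bp from desert summits. C/EBP matches were present at 721 sites (27.0%), beside 16.9% of union sites. CTCF matches were present at 252 sites (9.45%), beside 11.2% of union sites and 0.431% of flanking windows. TEAD matches were at 474 (17.8%), p53 family matches at 216 (8.1%), and RUNX matches at 189 (7.09%), beside 13.3%, 5.33%, and 4.53% of union sites. ETS and KLF/SP1 matches, which 25.7% and 23.6% of promoter sites held, were present at 5.03% and 1.8% of gene-desert sites, beside 13.4% and 10.7% of union sites. NF-kB, STAT3, and CREB matches were at 2.81%, 1.28%, and 0.413%, beside 2.63%, 1.26%, and 1.25% of union sites.

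AP-1 and CTCF matches lay close to the summits. Among sites whose nearest match was centered within 100 bp of the summit, its median distance was 26 bp for AP-1 and 20.5 bp for CTCF. It was 37.5 bp for C/EBP and 43.5 bp for TEAD. With this limit, single matches placed evenly would have a median about midway to it. At least 2 AP-1 matches were present at 212 sites, and up to 8 at a single site. AP-1 and C/EBP matches occurred together at 318 sites, AP-1 and TEAD matches at 201, and AP-1 and CTCF matches at 24. Taken singly, AP-1 matches were at 1176 sites, C/EBP at 721, TEAD at 474, and CTCF at 252. The numbers expected without any pairing were not computed, so that these counts do not tell whether matches pair. None of the 11 consensus sequences was present at 505 sites (18.9%).

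**Figure D3:**
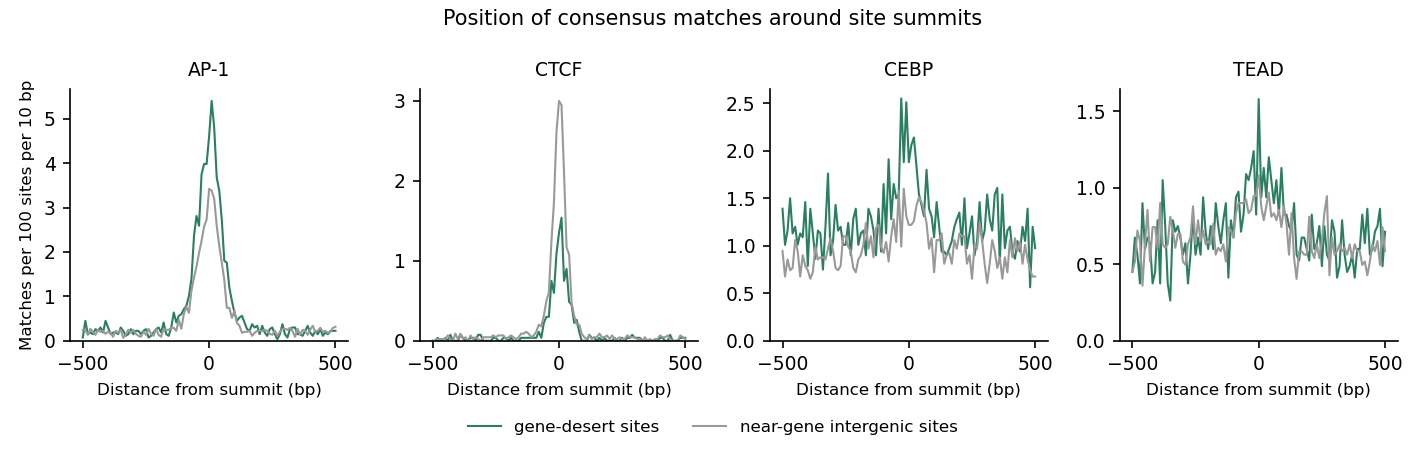
Matches per 100 sites in 10-bp bins (vertical axis) by distance from the summit in bp (horizontal axis), for gene-desert sites (green) and near-gene intergenic sites (gray). AP-1 and CTCF matches gather within about 100 bp of the summit in both classes, with the higher AP-1 peak in deserts and the higher CTCF peak near genes.

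The peaks of each library were then compared, since the libraries and not the sites are the replicates. All libraries were read at the same genome, so that the p values speak only to the spread between libraries. Compared with flanking windows in the same deserts, 10 of the 11 consensus sequences were more frequent in desert peaks (exact sign-flip permutation tests over 11 libraries with Benjamini-Hochberg adjustment). AP-1 matches were present in 34.7% ± 7.81 of desert peaks and 3.59% ± 0.777 of flanking windows (SD, n = 11), a ratio of 9.67 (exact permutation test, adjusted p = 0.00179). For CTCF the shares were 8.46% and 0.334%, a ratio of 25.3 (exact permutation test, adjusted p = 0.00179). C/EBP matches were present in 24.3% and 18.9%, a ratio of 1.29 (exact permutation test, adjusted p = 0.00269), and were more frequent in 10 of 11 libraries. CREB, at 0.344% and 0.169%, did not pass (exact permutation test, adjusted p = 0.17). The flanking windows were not alike in base composition. Median G+C was 50.2% at gene-desert sites and 43.8% in windows 1000 bp from their summits, and its part in these ratios was not tested.

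Desert peaks had more AP-1, C/EBP, and p53 family matches and fewer CTCF matches than near-gene peaks in 11 of 11 libraries. AP-1 shares of desert peaks were 31.9% and 33.6% in S100A8-Flag EtOH, 35.1%, 40.8%, and 40.5% in S100A8-Flag TAM, 26.9%, 22.4%, and 23.2% in S100A9-Flag EtOH, and 43.8%, 42.1%, and 41.5% in S100A9-Flag TAM. Near-gene peaks of the same libraries had 24.7% and 22.8%, then 25.9%, 28.2%, and 30.4%, then 19.3%, 17.6%, and 16.3%, and last 28.9%, 28.5%, and 30.0%. The mean difference was 9.92 ± 3.11 percentage points (SD, n = 11, exact sign-flip permutation test, adjusted p = 0.00269). CTCF shares ranged from 5.17 to 11% in desert peaks and from 14.0 to 22.5% in near-gene peaks, without overlap, and differed by -8.65 ± 2.98 points (SD, n = 11, exact permutation test, adjusted p = 0.00269). C/EBP shares differed by 6.8 points and p53 family shares by 2.29 points (exact permutation tests, adjusted p = 0.00269 for both). TEAD and RUNX shares were higher in deserts by 1.53 and 1.04 points, in 9 and 8 of 11 libraries (exact permutation tests, adjusted p = 0.023 and 0.0483). RUNX no longer passed when any of 8 libraries, 2 EtOH and 6 TAM, was left out (adjusted p from 0.0752 to 0.094, exact permutation tests), nor with the 5′ end of each gene as its only TSS or against all other distal peaks (exact permutation tests, adjusted p = 0.0994 and 0.149). TEAD did not pass with −log10 q of at least 10, with a limit of 25 kb, or with equal numbers of top peaks (exact permutation tests, adjusted p = 0.253, 0.196, and 0.14), and its difference was -0.794 points with a limit of 100 kb. ETS and KLF/SP1 shares differed by -2.58 and -2.19 points and were lower in deserts in 10 of 11 libraries each (exact permutation tests, adjusted p = 0.0143 and 0.0043). ETS did not pass with −log10 q of at least 10, with a limit of 25 kb, with gene 5′ ends, or with equal numbers of top peaks (exact permutation tests, adjusted p = 0.306, 0.261, 0.0706, and 0.14). The p53 family did not pass with equal numbers of top peaks (exact permutation test, adjusted p = 0.0721). NF-kB, CREB, and STAT3 did not pass, with differences of -0.317, -0.0962, and -0.0842 points (exact permutation tests, adjusted p = 0.329, 0.454, and 0.565).

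**Figure D4:**
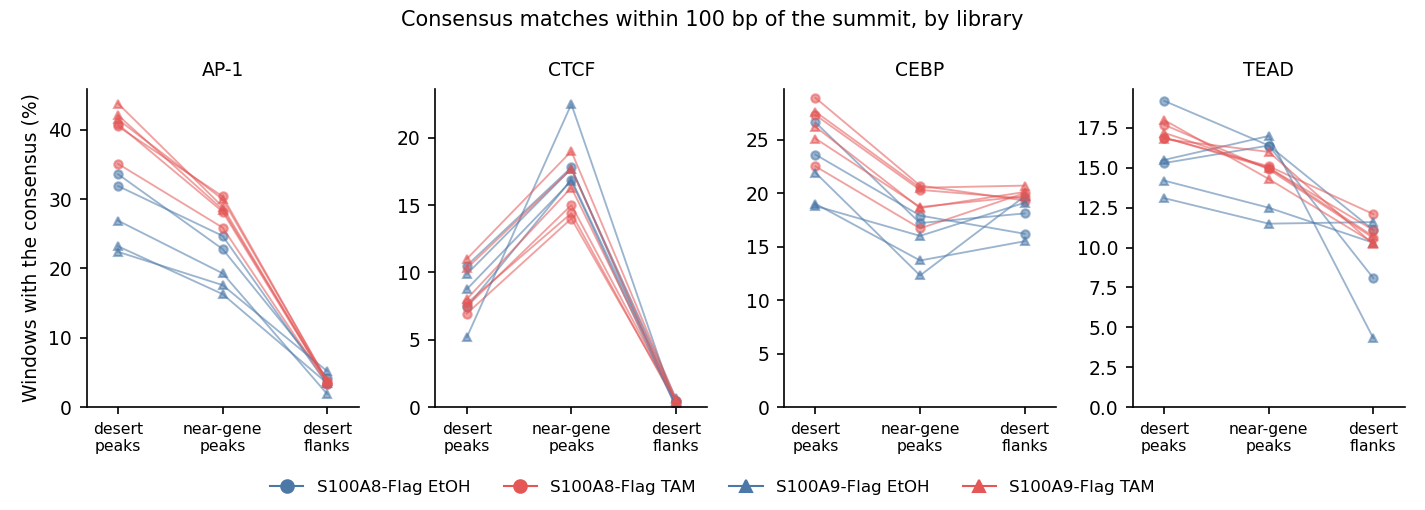
Percent of summit windows with an AP-1, CTCF, CEBP, or TEAD consensus in the desert peaks, the near-gene peaks, and the windows 1000 bp from the desert peaks of each library. Lines join the values of a library, colored by treatment; every line falls from desert to near-gene peaks for AP-1 and CEBP, and every line rises for CTCF.

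G+C content moved with these differences. Desert peaks had a mean G+C of 53.1% and near-gene peaks 56.5%, a difference of -3.45 ± 0.583 percentage points with desert peaks lower in 11 of 11 libraries (SD, n = 11, exact sign-flip permutation test, p = 0.000977, the smallest it can give). The comparison was therefore repeated among peaks of like G+C, in bands chosen after the difference was seen. Among peaks with 40 to 50% G+C, 1 of the 11 consensus sequences differed, and the AP-1 and CTCF differences over 11 libraries were 2.29 and -0.73 points (exact permutation tests, adjusted p = 0.546 and 0.986). EtOH libraries had only 4 to 57 desert peaks in that band. There AP-1 was higher in deserts in 1 of 5 EtOH libraries and in 6 of 6 TAM libraries, and the TAM means were 44.5% in deserts and 36.7% near genes (exact permutation test, p = 0.0312, the smallest for 6 libraries). Among peaks with 50 to 60% G+C, 4 consensus sequences differed, AP-1 was higher in 11 of 11 libraries, and CTCF was lower in 11 of 11. In TAM libraries the AP-1 shares in this band were 40.6% and 29.3%, and the CTCF shares 9.39% and 15.5%. C/EBP was higher in deserts in 6 of 6 TAM libraries in both bands. Its TAM difference was 2.63 points at 40 to 50% and 3.66 at 50 to 60%, against 7.01 over all peaks. The p53 family difference in TAM was 0.379 points in the lower band and 1.11 in the upper, against 1.35 over all peaks. It was higher in 4 and 5 of 6 TAM libraries (exact permutation tests, unadjusted p = 0.312 and 0.0625). In EtOH both were higher in 4 of 5 libraries in each band. TEAD and RUNX did not pass in either band over 11 libraries. In TAM libraries alone, RUNX was higher in deserts in 6 of 6 in both bands, TEAD was higher in 6 of 6 at 50 to 60% G+C, and CTCF was lower in 6 of 6 at 40 to 50%, by -2.36 points (exact permutation tests, unadjusted p = 0.0312 for each).

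The shares followed the distance from genes. From intergenic sites 1.5 to 10 kb from a protein-coding TSS to sites over 500 kb away, the AP-1 share went from 26.2% to 49.1% and the C/EBP share from 17.9% to 30.2%. The CTCF share went from 20.6% to 7.12% and mean G+C from 55.7% to 48.1%. The share of sites with a peak in an EtOH library, which the choice of sites used, went from 26.9% to 10.7%. Sites 50 to 100 kb away, just past the limit, had an AP-1 match in 42.2%, against 34.6% of sites 25 to 50 kb away. AP-1 did not rise at every step, with 45.6% at 100 to 200 kb and 43.6% at 200 to 500 kb.

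**Figure D5:**
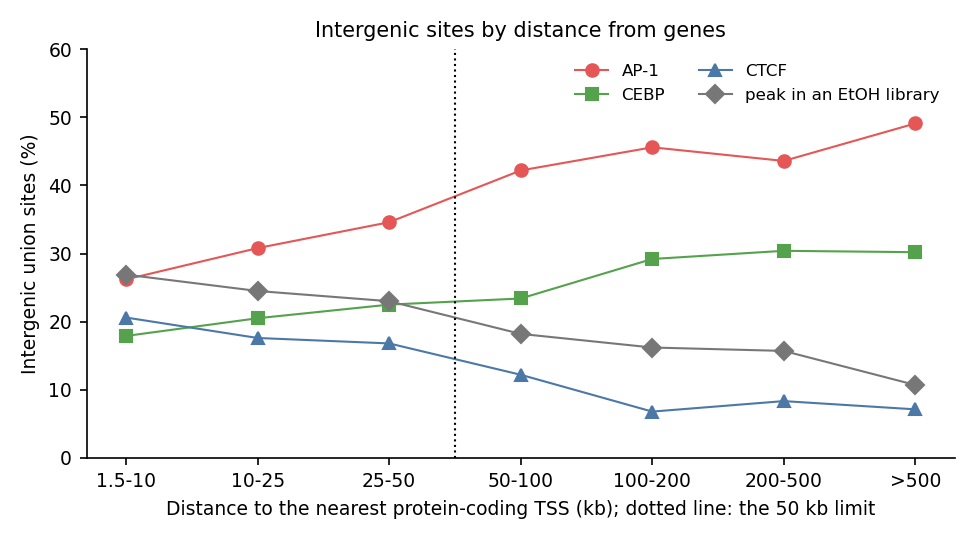
Percent of intergenic union sites (vertical axis) with an AP-1, CEBP, or CTCF match within 100 bp of the summit, or with a peak in any EtOH library, by distance to the nearest protein-coding TSS in kb (horizontal axis, unequal bins). The dotted line marks the 50 kb limit; the AP-1 share is 26.2% in the first bin drawn, 1.5 to 10 kb, and 49.1% in the last, and the CTCF share 20.6% and 7.12%. The 17 intergenic sites nearer than 1.5 kb, of which 17.6% had an AP-1 and 29.4% a CTCF match, are not drawn.

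Gene-desert sites also differed among themselves by G+C. The 462 sites with G+C under 45% had AP-1 matches in 50.4%, CTCF matches in 2.6%, and an EtOH peak in 4.76%. The 105 sites with G+C of at least 65% had AP-1 matches in 13.3%, CTCF matches in 31.4%, and an EtOH peak in 42.9%. Sites with an AP-1 match had an EtOH peak in 14.9% and sites without in 17.6%. All 6 TAM libraries called 11.6% of sites with an AP-1 match and 8.52% of those without. The calls helped to choose these sites. No other class of sites was split by G+C here, so that these shares are not shown to be particular to deserts.

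The AP-1 share of desert peaks in TAM exceeded that in EtOH in every library, but no consensus sequence passed the test after adjustment over the 11. The 5 EtOH libraries had a mean of 27.6% ± 5.04 and the 6 TAM libraries one of 40.6% ± 2.96 (SD), and the highest EtOH library, at 33.6%, was below the lowest TAM library, at 35.1%. The difference averaged over proteins was 12.2 points (exact permutation test, p = 0.01, the smallest it can give, adjusted p = 0.055). It was 6.06 points for S100A8-Flag and 18.3 points for S100A9-Flag, and the difference between the proteins was 12.2 points (exact permutation test, p = 0.17). With 0.01 as the smallest exact permutation p, no sequence passes the adjustment over 11 unless others also have small p values. The adjusted p of AP-1 therefore depends on the other sequences as well. Near-gene peaks also had larger mean shares in TAM, so that the rise was not seen in deserts alone. Their AP-1 share was 20.2% in EtOH and 28.7% in TAM, again without overlap of single libraries. Their C/EBP share was 15.4% and 19.3%, and these near-gene changes were not tested. The KLF/SP1 share of desert peaks was 3.44% ± 1.1 in EtOH and 1.66% ± 0.292 in TAM (SD, n = 5 and 6, exact permutation test, p = 0.01, adjusted p = 0.055). Its difference was -0.31 points among equal numbers of top peaks and -0.574 within 50 bp of the summit (exact permutation tests, unadjusted p = 0.77 and 0.28), and 0.357 at 40 to 50% G+C. STAT3 was the third with an unadjusted p under 0.05, with 0.819% in EtOH and 1.41% in TAM (exact permutation test, p = 0.04, adjusted p = 0.147). The C/EBP share was 22% in EtOH and 26.3% in TAM (exact permutation test, p = 0.06, adjusted p = 0.165). This direction turned among peaks of like G+C, with 37% in EtOH and 33.6% in TAM at 40 to 50% and 24.3% and 20.3% at 50 to 60% (exact permutation tests, unadjusted p = 0.22 and 0.09). EtOH libraries had only 4 to 57 desert peaks in the first band and 35 to 138 in the second. TAM libraries had 866 to 2005 and 710 to 1537, and each library counted equally in these means. Among equal numbers of top peaks the C/EBP difference was 11.6 points (exact permutation test, unadjusted p = 0.01). CTCF shares were 8.34% and 8.57%, a difference of 0.127 points (exact permutation test, adjusted p = 0.91). Within the bands of 40 to 50% and 50 to 60% G+C the AP-1 difference was 13.6 and 9.59 points (exact permutation tests, adjusted p = 0.0733 and 0.147). AP-1, C/EBP, and KLF/SP1 passed with −log10 q of at least 10 (exact permutation tests, adjusted p = 0.0367 for each) and, together with TEAD and STAT3, with a limit of 100 kb (exact permutation tests, adjusted p = 0.044 for each). Among the 1853 top peaks the AP-1 shares were 29.5% in EtOH and 52.5% in TAM, from 58 to 152 desert peaks a library.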

How the data were processed

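Flag ChIP-seq peak lists of 11 libraries were used. The authors aligned reads to hg19 with Bowtie2 and called peaks with MACS2 in each library against its input (versions not given in the sources used here). In the deposited lists, each peak has a fold enrichment over input (a ratio), a −log10 p-value, which was not used, and a −log10 q-value. The lists reach down to q = 0.05. The study also required raw reads at a peak, which was not applied here, and Pol II and input libraries were not analysed here. Genes, lncRNAs, and the TSSs of their transcripts were from GENCODE 44 lifted to GRCh37. Peaks with −log10 q of at least 7 on chromosomes 1 to 22 and X were merged with an overlap of 1 bp. Fold enrichment was ranked within libraries, and consensus sequences were matched without mismatches within 100 bp of summits and in windows centered 1000 bp away. The reference holds no lower-case bases, so that repeat content could not be computed. Treatments were compared by exact permutation within proteins (200 arrangements) and classes of peaks by exact sign-flip permutation over libraries, with adjustment over 11 consensus sequences. Pairing of libraries by replicate number was not seen. The correlation of their centered calls over 5 pairs was -0.0145 to 0.00489 at all sites and -0.0269 to 0.0197 at gene-desert sites. With 2 or 3 libraries in a group, this cannot exclude pairing, and the tests without a block take the libraries as unpaired. Functions were tested on simulated data. Named sites were the 8 called in most libraries, ties by mean percentile; the 5 farthest from a TSS; the 6 fullest intervals, those beyond them being named after their values were seen; the 3 leading sites confident in EtOH alone; the leading site with each of 6 single consensus sequences; and those nearest the 50 kb limit. One of these intervals and some listed genes are counted but not reported here by name. The members, lists, and rules were chosen with earlier results of these data known.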

Additional observations from a re-analysis of the deposited data

How the results depend on the processing

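The number of gene-desert sites depended on the definitions. It was 5787 with every deposited peak, 1397 with −log10 q of at least 10, 977 when every replicate was required, 7663 with at least 1 replicate, 1519 beyond 100 kb, 4301 without lncRNA genes, 107 from equal numbers of top peaks, 3055 with the 5′ end of each gene as its only TSS, and 1856 to 2665 without single libraries. The TAM minus EtOH difference in desert share kept its direction and call under all alternatives, including 4.12 to 4.65 points without single libraries (2.45 to 2.88 among top peaks), except with the replicate block (4.47 and 2.49 points), where 0.0625 is the smallest p. The percentile difference passed only with every deposited peak (-4.21). The recall difference was -2.95 to -2.38 without single libraries, -0.762 at −log10 q of at least 10, and 0.732 with equal numbers of top peaks. Consensus sequences that differed between desert and near-gene peaks numbered 9 with every deposited peak, 7 beyond 100 kb and against all other distal peaks, 6 at −log10 q of at least 10, at 25 kb, with gene 5′ ends, and with equal numbers of top peaks, 7 to 8 without single libraries, 1 at 40 to 50% G+C, and 4 at 50 to 60%, bands added after seeing the data; a lower band held no desert peaks in several EtOH libraries and gave no value. Those that differed between treatments numbered 3 at −log10 q of at least 10 and 5 beyond 100 kb. The causes of these changes were not tested. At −log10 q of at least 10, beyond 100 kb, and in the main setting alike, the unadjusted p of AP-1 was 0.01, the smallest possible (exact permutation tests). The G+C difference kept its direction and call under all alternatives.

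Single consensus sequences changed sign as follows. Desert minus near-gene: NF-kB 0.124 with every deposited peak and 0.444 at 50 to 60% G+C; STAT3 0.549 at −log10 q of at least 10, 0.0316 with gene 5′ ends, 0.192 without lncRNA genes, 0.944 with equal numbers of top peaks, and 0.0867 within 50 bp; CREB 0.192 without lncRNA genes and 0.275 at 40 to 50% G+C; TEAD -0.794 beyond 100 kb and -1 at 40 to 50%; RUNX -0.579 at 40 to 50%; KLF/SP1 0.394 at 50 to 60%. Desert minus flanks: CEBP -0.00795 with every deposited peak and KLF/SP1 -0.231 at 40 to 50% G+C. TAM minus EtOH in desert peaks: NF-kB -0.0197 with every deposited peak, -0.114 at 25 kb, and -0.091 to 0.564 without single libraries; STAT3 -0.0325 at −log10 q of at least 10; CTCF -1.37 at 25 kb, -0.981 with gene 5′ ends, -0.0587 within 50 bp, -0.7 at 40 to 50% G+C, and -0.637 to 0.892 without single libraries; CREB -0.566 without lncRNA genes and -0.0763 at 40 to 50%; p53 family 1.59 with top peaks; ETS 0.197 within 50 bp, 1.47 at 40 to 50%, and 0.788 at 50 to 60%; CEBP -4.07 at 40 to 50% and -4.22 at 50 to 60% G+C; KLF/SP1 0.357 at 40 to 50%. RUNX, higher in deserts, lost its call without 8 of the 11 single libraries.

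Depth is unknown, since the lists hold no read numbers. Repeat content was not computed, because the reference is not soft-masked.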
